A study of Mus musculus with 4 samples.

Results

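The CpG islands of Hs6st3, Odz3 (now named Tenm3) and Ttc28 are described here on the 4 arrays of a study of prenatal exposure to titanium dioxide nanoparticles in mice. The islands were chosen by their position on the mm9 genome build and were singled out because of their methylation values on these same arrays, so their levels and differences are a description and carry no test. Every probe of the array that lay in chr14:119536000-119539000 was taken for Hs6st3, in chr8:49313000-49315500 for Odz3 and in chr5:111308000-111310000 for Ttc28. These windows held 26 probes, 14 of Hs6st3, 5 of Odz3 and 7 of Ttc28, of 88737 probes on the array. In each window the probes formed 1 unbroken island, a run of probes separated by gaps of at most 1000 bp, so that 3 of 14178 autosomal islands are described.

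Pregnant C57BL/6J mice received titanium dioxide nanoparticles (TiO2-NP, 100 ug per mouse, the TiO2-H group) or vehicle (the Sham group) into the trachea, and whole brains of their untreated offspring were taken at the age of 1 day. Titles and source names give each sample its exposure and sex, whereas the description field is the same for all 4 samples and names male offspring and vehicle. The day of exposure is gestational day 14 in the sample names and gestational day 10.5 in the treatment protocol. Genomic DNA of 2 offspring from each of 5 Sham dams or 6 TiO2-H dams was pooled within each exposure and sex label, giving a male and a female Sham pool and a male and a female TiO2-H pool, and each was hybridised to 1 array. A pool therefore has no replicate, the spread between animals is not known, and a change in the share of a cell type in the brain cannot be told apart from a change within its cells.

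In mammals methyl groups are carried mainly by the cytosine of CpG dinucleotides, and CpG islands, the stretches where CpG is dense, are mostly unmethylated at active promoters. In methylated DNA immunoprecipitation (MeDIP) an antibody against methylated cytosine pulls down single-stranded fragments, and the recovered DNA (Cy5 here) is compared on the array with untreated input DNA (Cy3). Hs6st3 encodes a heparan sulfate sulfotransferase that adds sulfate to the 6-O position of glucosamine in heparan sulfate chains, which bind growth factors and their receptors at the cell surface. Odz3 encodes teneurin-3, a large transmembrane adhesion protein that guides the matching of neurons to their targets. Ttc28 encodes a large protein with tetratricopeptide repeats, a motif through which proteins bind one another.

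In the probe annotation that accompanied the study, the fourth Hs6st3 probe and the first Ttc28 probe carried the word promoter, whereas the second Odz3 probe and the third Ttc28 probe were placed inside the gene. The promoters of Hs6st3 and Ttc28 are shown because a probe of each island carried the word promoter. They come from RefSeq on GRCm38.p6, another build than the mm9 positions of the probes, so the probes could not be placed on these letters. Each sequence runs from 250 bases before to 50 bases after the start of the gene, 5′ to 3′ on the gene's strand, with every CpG in capitals.
Hs6st3 (chr14:119138015-119138314, plus strand): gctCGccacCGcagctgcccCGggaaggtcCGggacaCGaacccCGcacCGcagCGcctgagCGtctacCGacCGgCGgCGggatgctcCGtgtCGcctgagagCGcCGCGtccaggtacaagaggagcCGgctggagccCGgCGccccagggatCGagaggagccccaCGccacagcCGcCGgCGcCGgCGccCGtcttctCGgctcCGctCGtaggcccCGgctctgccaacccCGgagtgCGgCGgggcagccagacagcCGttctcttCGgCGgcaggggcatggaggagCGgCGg
Ttc28 (chr5:110879553-110879852, plus strand): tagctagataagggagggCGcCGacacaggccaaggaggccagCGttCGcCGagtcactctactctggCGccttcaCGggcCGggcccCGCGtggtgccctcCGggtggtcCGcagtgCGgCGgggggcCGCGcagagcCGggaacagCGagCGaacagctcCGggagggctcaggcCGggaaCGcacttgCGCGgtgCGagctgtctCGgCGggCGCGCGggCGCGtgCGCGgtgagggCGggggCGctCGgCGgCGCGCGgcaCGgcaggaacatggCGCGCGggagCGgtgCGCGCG
The Hs6st3 promoter held 41 CpG dinucleotides and the Ttc28 promoter 49, against a median of 7 over 32544 RefSeq promoters of the same length. As many CpG as at Hs6st3 were present in 3.49% of these promoters, and as many as at Ttc28 in 1.03%. G and C made up 75.3% and 76.3% of the bases. The listed promoter of Tenm3 was of another kind, with 10 CpG and 47.3% G and C. It is not printed because the second Odz3 probe was annotated inside the gene.

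Relative DNA methylation was the log2 ratio of the processed Cy5 and Cy3 signals after the autosomal median of the array had been subtracted, so that 0 is the level of the typical autosomal probe. MeDIP signal depends on the density of CpG as well as on their methylation, so levels are read within a probe across arrays and, between probes, only as high or low MeDIP recovery. The input was bright, with Cy3 well above background at 93.8% to 98.0% of probes. The MeDIP channel was dimmer on the arrays of the exposed pools, where Cy5 was well above background at 25.3% and 33.0% of probes, against 51.2% and 59.4% on the Sham arrays. Ratios were also spread less widely on the Sham female array (median absolute deviation 0.60) than on the other 3 arrays (0.91 to 1.08), so values are also given after quantile normalization, which gives all arrays the same distribution. The median input of X-linked probes, set against that of autosomal ones, was -0.75 (log2) for Sham male and 0.03 for Sham female. It was 0.03 for the array labelled TiO2-H male and -0.74 for that labelled TiO2-H female, so both TiO2-H arrays went against the sex in their labels. Comparisons are therefore given as labelled and with both TiO2-H labels exchanged. The labelled pairs shared a slide, and both Sham arrays had one position on their slides and both TiO2-H arrays the other, so slide and sex label cannot be told apart, nor exposure and position.

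The islands were named well-methylated from these same arrays, so their levels do not test that name. Ratios above the autosomal median were found at all probes of Odz3 and at part of Hs6st3 and Ttc28. Of the 26 probes, 18 lay above the autosomal median on all 4 arrays, 6 lay below it on all 4, and 2 crossed it. All 5 Odz3 probes were above the median on every array, as were 9 of 14 Hs6st3 probes and 4 of 7 Ttc28 probes. Cy3 was well above background at all 26 probes on all 4 arrays. Cy5 was well above background on all 4 arrays at 14 probes and on no array at 6 probes, 3 of Hs6st3 and 3 of Ttc28, so the MeDIP signal of these 6 gives only an upper bound on their level.

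**Figure D1:**
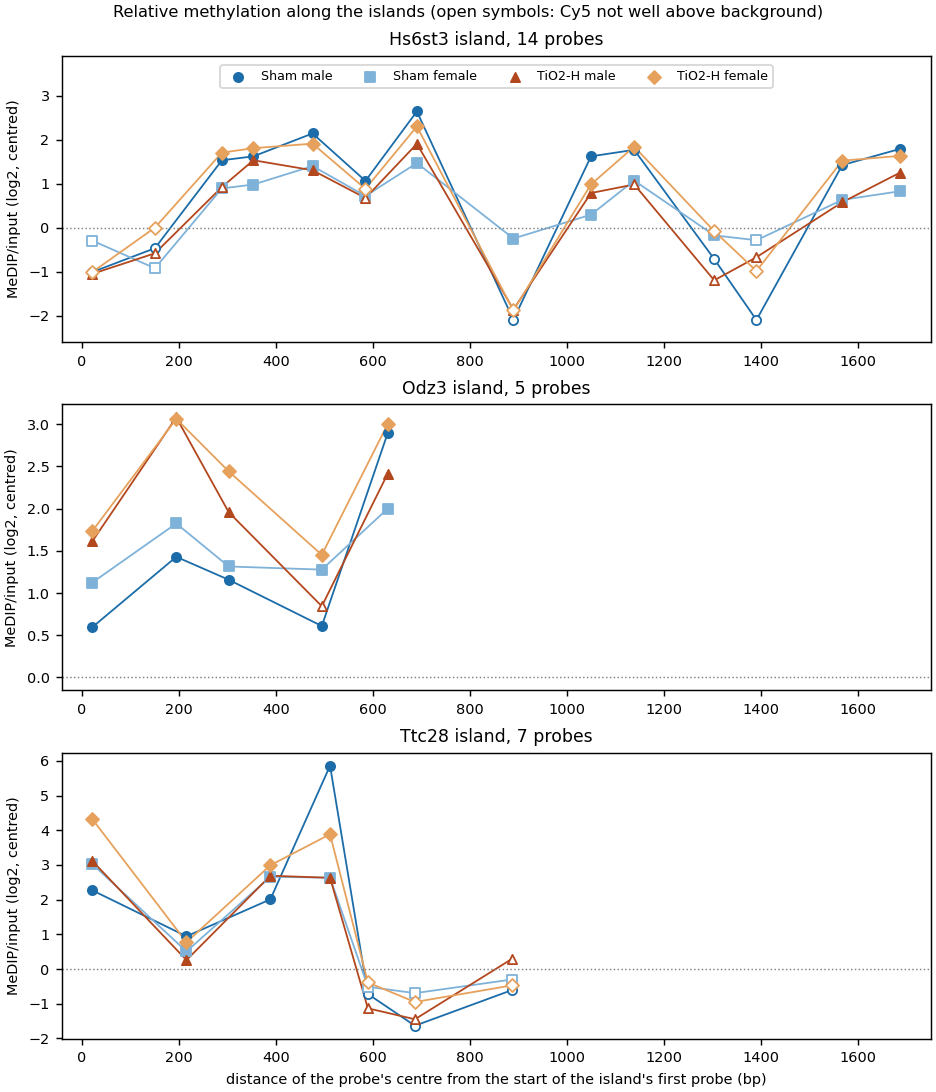
Centred MeDIP over input ratio (log2) of every probe against its distance in bp from the start of the island, with a panel per island and a line per array; open symbols mark probes whose Cy5 was not well above background and the dotted line is the autosomal median. The 4 arrays traced similar peaks and dips along Hs6st3, the last 3 Ttc28 probes lay near or below the median, and the first 3 Odz3 probes were highest on both TiO2-H arrays.

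The Hs6st3 island spanned 1710 bp (chr14:119536757-119538466) and alternated between stretches of high and low ratio. Its first 2 probes lay near or below the autosomal median, with ratios from -1.05 to 0.00, and Cy5 was not well above background there on any array. The next 5 probes, starting between 119537024 and 119537426, formed the main block of high ratio. At its peak, the probe starting at 119537426, the ratio was 2.64 for Sham male, 1.47 for Sham female, 1.91 for the array labelled TiO2-H male and 2.30 for that labelled TiO2-H female. At the probe annotated as promoter, starting at 119537089, the ratio was 1.62, 0.98, 1.53 and 1.81 on the arrays in the same order, and at its neighbour starting at 119537211 it was 2.14, 1.40, 1.31 and 1.91. The Sham female array was the lowest at the first 2 of these 3 probes and the array labelled TiO2-H male at the third, and the Sham and TiO2-H values overlapped at all 3. The block was broken at the probe starting at 119537625, with ratios of -2.09, -0.25, -1.86 and -1.88, where Cy5 was well above background on the Sham female array alone. A pair of higher probes followed (0.30 to 1.84), then a second dip at the probes starting at 119538039 and 119538126 (-2.10 to -0.08), and the last 2 probes were high again (0.58 to 1.79).

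The profile of the 14 probes was similar on all arrays, with Pearson's r between 0.86 and 0.97 over the 6 pairs of arrays. These correlations run across probes, which share sonicated fragments with their neighbours and are not independent. The median over the 14 probes was 1.48 for Sham male, 0.68 for Sham female, 0.73 for the array labelled TiO2-H male and 1.25 for that labelled TiO2-H female. The arrays with low X-linked input, Sham male and the one labelled TiO2-H female, were the higher pair, and Sham and TiO2-H arrays overlapped. Among 13091 autosomal islands of at least 3 probes, Hs6st3 stood at the 93.7, 85.7, 82.9 and 89.3 percentile of its array in the same order. After quantile normalization the medians were 1.30, 0.93, 0.75 and 1.09, and the lowest array became the one labelled TiO2-H male.

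The Odz3 island was short, 654 bp (chr8:49313858-49314511), and its ratio lay above the autosomal median at every probe. At its first probe, starting at 49313858, the ratio was 0.60 for Sham male, 1.12 for Sham female, 1.61 for the array labelled TiO2-H male and 1.73 for that labelled TiO2-H female. At the second, starting at 49314031 and annotated inside the gene, it was 1.43, 1.82, 3.08 and 3.06 in the same order, and at the third, starting at 49314139, it was 1.16, 1.31, 1.96 and 2.44. At these 3 probes both TiO2-H arrays lay above both Sham arrays, whichever sex they were assigned. The fourth probe, starting at 49314331, read 0.61, 1.28, 0.84 and 1.45, and its Cy5 was dim, not well above background, for the array labelled TiO2-H male. The last probe, starting at 49314467, read 2.90, 2.00, 2.42 and 3.0. At both of these the groups overlapped, and at the last one the Sham male array was nearly as high as the array labelled TiO2-H female.

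The island median was 1.16 and 1.31 on the Sham male and Sham female arrays, and 1.96 and 2.44 for the pools labelled TiO2-H male and female. This placed Odz3 at the 88.3 and 94.5 percentile of autosomal islands on the Sham arrays and at the 99.0 and 99.2 percentile on the TiO2-H arrays. After quantile normalization the medians were 1.00, 1.68, 2.12 and 2.13 in the same order, again with no overlap of the exposures. After loess they were 1.82, 1.63, 2.08 and 2.09, also without overlap. After another background correction (normexp) they were 0.33, 0.03, 0.19 and 0.38, and the exposures overlapped. The first Odz3 probe then lay below the autosomal median for Sham male (-0.30) and the arrays labelled TiO2-H male (-0.12) and female (-0.13). The share of all islands without overlap was not computed. Pearson's r between the 5-probe profiles ran from 0.59 (Sham male with the array labelled TiO2-H male) to 0.94 (both TiO2-H arrays), over fewer probes and a narrower range of levels than at the other islands.

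The Ttc28 island spanned 911 bp (chr5:111308521-111309431) and had a part of high and a part of low ratio. The promoter probe, starting at 111308521, read 2.27 for Sham male, 3.03 for Sham female, 3.12 for the array labelled TiO2-H male and 4.32 for that labelled TiO2-H female. The probe starting at 111308888, inside the gene, read 2.01, 2.66, 2.69 and 2.99 in the same order. Both TiO2-H arrays lay above both Sham arrays at these 2 probes, by 0.09 and 0.03 where the groups came closest. Between them the probe starting at 111308715 had a moderate ratio, at 0.94, 0.51, 0.26 and 0.77.

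The highest reading of all 3 islands was at the fourth Ttc28 probe, starting at 111309011. It was 5.86 on the Sham male array, at the 99.8 percentile of autosomal probes, whereas Sham female gave 2.63 and the pools labelled TiO2-H male and female gave 2.63 and 3.89. Processed Cy5 was 177447 on the Sham male array and between 19510 and 39023 on the other 3, whereas Cy3 lay between 4498 and 6003 on all 4, so the Sham male array stood apart in the MeDIP channel. The next probe began 33 bp after this one ended and read -0.72, -0.51, -1.13 and -0.39. The remaining 2 probes lay between -1.64 and 0.29, and at all 3 Cy5 was not well above background on any array. The ratio therefore dropped between 2 adjacent probes on every array. Processed Cy3 was also lower at the second of them, between 646 and 868. Probes this close share sonicated fragments, so no boundary of methylation is read from the drop. With the 7 probes split in this way, the island median was set by the moderate probe on 3 arrays, at 0.94, 0.51 and 0.77 on Sham male, Sham female and the array labelled TiO2-H female, and was 0.29 on the array labelled TiO2-H male. It stood at the 84.3, 81.4 and 80.3 percentile of autosomal islands on the first 3 and at the 66.5 percentile on the last. Pearson's r between profiles ran from 0.82 to 0.99, and the 3 lowest values all involved the Sham male array.

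**Figure D2:**
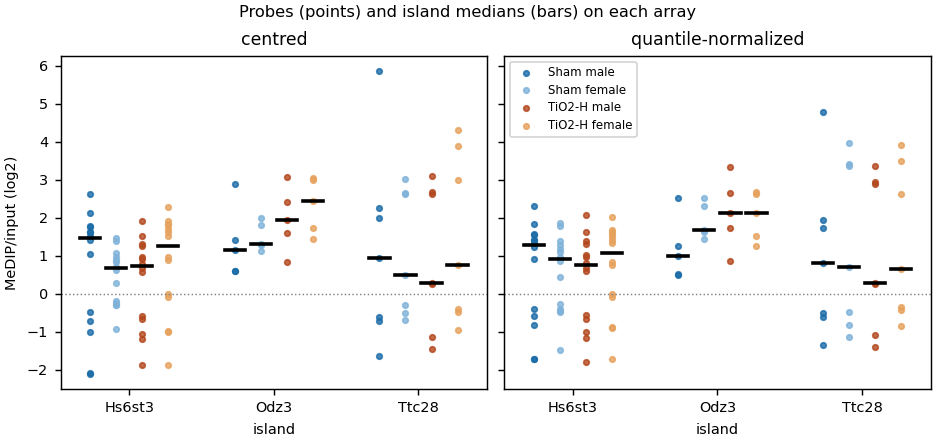
Log2 MeDIP over input of each probe (points) and the median of the island (bars) on each of the 4 arrays, centred on the autosomal median (left) and after quantile normalization (right). Odz3 medians were highest on the TiO2-H arrays on both scales, Hs6st3 medians overlapped between exposures, and the Ttc28 points fell into a high and a low set with 1 reading of 5.86 on the Sham male array.

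The study compared exposed with sham pools within each sex on these arrays. It listed Hs6st3 with lower island methylation and higher mRNA after exposure in both sexes. In males the listed probes start at 119537211 and 119537426, and in females at 119537625, where Cy5 was dim on the TiO2-H array. In single offspring the study also reported a statistically significant decrease of Hs6st3 methylation after exposure, by enrichment of methylated DNA and quantitative PCR. That measure is another than the array ratio and was not analysed here. A probe was counted as measured in a pair of arrays when both arrays had Cy3 well above background, at least 1 had Cy5 well above background, and the p-value of its log ratio was under 0.05 on either. It was counted as a rise at 1.5-fold or more and as a fall at 0.67-fold or less, and with a single array in each group no test stands behind these counts. In the male comparison 8 of 14 Hs6st3 probes, 4 of 5 Odz3 probes and 3 of 7 Ttc28 probes were measured, and in the female comparison 9, 5 and 3. A probe with dim Cy5 on both arrays cannot enter, so the low stretches of Hs6st3 and Ttc28 are mostly left out of what follows. In the male comparison, the array labelled TiO2-H male minus Sham male, 3 of 4 measured Odz3 probes rose and 0 fell, where 3.14% of all 34781 measured autosomal probes rose. The median Odz3 difference was 0.91 (log2, 1.88-fold higher, -0.48 to 1.65 over the 4 probes), against -0.68 for all measured probes. Of 5896 islands with at least 3 measured probes, 5 had a median this high, Odz3 included. At Ttc28, 2 of 3 measured probes rose (0.85 at 111308521 and 0.68 at 111308888) and the fourth probe fell by 3.23 on the log2 scale, with a median of 0.68 (1.60-fold) that 22 islands reached. The Ttc28 probe starting at 111308715 had Cy5 well above background on every array but missed the p-value rule. Its difference was -0.69 here and 0.26 in the female comparison. At Hs6st3, 6 of 8 measured probes fell and 0 rose, where 56.0% of all measured probes fell. With dim Cy5 taken as a bound 5 of 8 fell, and no share of all measured probes was computed with such bounds. The Hs6st3 median was -0.76, at least 1.66-fold lower where 2 probes with dim Cy5 are taken as bounds. It stood at the 43.0 percentile of the islands with at least 3 measured probes. The median of -0.68 is over the 40.5% of autosomal probes that were measured, and is not a shift of the whole array. The input signal of the measured probes, centred on each array, differed by -0.18 to 0.22 (log2) at Hs6st3, 0.02 to 0.16 at Odz3 and -0.23 to 0.26 at Ttc28, and its part in the ratios was not tested.

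Quantile normalization left the male differences of Odz3 and Ttc28 above 1.5-fold and reduced that of Hs6st3. Again 3 of 4 Odz3 probes and 2 of 3 Ttc28 probes rose, where 4.90% of all measured probes rose, with medians of 1.17 and 1.21. At Hs6st3, 2 of 8 probes fell, where 44.9% of all measured probes fell, and the median was -0.43. Since the islands were singled out on these arrays, nothing is read from their place among all islands.

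In the female comparison, the array labelled TiO2-H female minus Sham female, the medians of all 3 islands were higher in the exposed pool. At Odz3, 4 of 5 measured probes rose, with a median of 1.00 (2.00-fold, 0.17 to 1.24). At Ttc28, 2 of 3 rose, with a median of 1.25 (2.38-fold, 0.33 to 1.29). At Hs6st3, 6 of 9 rose and 1, the dip at 119537625, fell, with a median of 0.80 (1.75-fold). Among all 41111 measured autosomal probes 28.8% rose and 36.3% fell, with a median of -0.10. Without centring, 0 of 9 Hs6st3 probes rose and 1 fell, while 2 of 5 Odz3 and 2 of 3 Ttc28 probes rose. The medians were then 0.30, 0.50 and 0.74, and no share of all measured probes was computed. Quantile normalization removed the rises, and the medians became 0.23 at Hs6st3, 0.10 at Odz3 and -0.05 at Ttc28. No member probe then rose, where 7.34% of all measured probes did, and 1 probe each of Hs6st3 and Ttc28 fell, where 35.0% did. The Sham female array had the narrowest spread of ratios, and its part in these differences was not tested. The input of the measured probes differed by -0.21 to 0.31 at Hs6st3 and -0.16 to 0.17 at Odz3. At the 3 Ttc28 probes it differed by -0.45 (111308521, a rise of 1.29), 0.42 (111308888) and -0.09 (111309011, a rise of 1.25), so at the first of them lower input in the exposed pool went with the higher ratio.

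**Figure D3:**
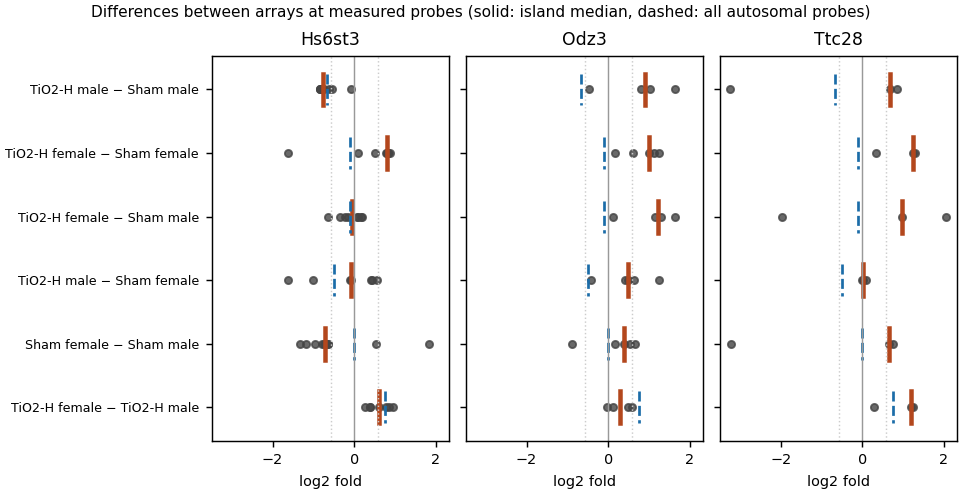
Log2 difference between 2 arrays at each measured probe (points) for 6 pairs of arrays, with the island median (solid bar) and the median of all measured autosomal probes (dashed bar); dotted lines mark 1.5-fold and 0.67-fold. Odz3 and Ttc28 medians lay above the median of all measured probes in all 4 pairs of a TiO2-H with a Sham array, and Hs6st3 medians changed sign between the pairs.

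When both TiO2-H labels were exchanged, so that arrays of like X-linked input were compared, Hs6st3 no longer differed by 1.5-fold. On the arrays with low X-linked input (labelled TiO2-H female minus Sham male), its median was -0.04 and 1 of 8 measured probes fell, where 22.1% of all measured probes fell. On those with high X-linked input (labelled TiO2-H male minus Sham female), it was -0.09 and 2 of 7 fell, where 46.2% of all measured probes fell. Both of these had dim Cy5 on the TiO2-H array, and with dim Cy5 taken as a bound 0 of 7 fell and the direction of the median was lost. At the probe starting at 119538039 the bound was 0.70 (log2), an upper limit on its difference and not a rise. The share of 46.2% was computed without such bounds. The Odz3 island kept its direction on the centred scale. In the pair with low X-linked input 3 of 4 of its probes rose, where 10.3% of all measured probes rose, with a median of 1.21 (2.32-fold). In the pair with high X-linked input 2 of 5 rose, where 3.36% rose, with a median of 0.49 (1.40-fold). After quantile normalization the Odz3 medians were 1.07 and 0.28 in these pairs. In the second, 1 probe then rose and 1 fell, and the share of all measured probes was not computed. With a common spread the Odz3 differences in the second pair ran from -1.08 to 0.33, so the direction depended on the scale. Ttc28 differed between the pairs. In the pair with low X-linked input its median was 0.98, with 2 of 3 probes up, and the probe starting at 111309011 fell by 1.98 (log2). In the pair with high X-linked input its median was 0.03, with 0 of 3 up and 0 down. These 4 pairs use each array more than once and are not independent of each other.

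Both arrays of one exposure can also be set against both of the other, which does not depend on the sex labels. This was done over 39861 autosomal probes, those whose Cy3 was well above background on all 4 arrays and whose Cy5 was on at least 2. Both TiO2-H arrays lay above both Sham arrays at 3 of 5 Odz3 probes and 2 of 4 Ttc28 probes, where 7.62% of all such probes did. No member probe of this set lay below on both, where 18.2% of all such probes did, and all 9 Hs6st3 probes of the set overlapped. After quantile normalization 4 of 5 Odz3 probes, 1 of 9 Hs6st3 probes and 0 of 4 Ttc28 probes lay above, where 6.46% of all such probes did, and 2 Hs6st3 probes and 1 Ttc28 probe lay below, where 25.1% did. Of the 3 islands only Odz3 thus had more probes apart than overlapping on both scales.

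Pools of the same exposure differed from each other as well, by amounts that depended on the scale. Between the Sham arrays (female minus male), 8 of 10 measured Hs6st3 probes fell, where 33.0% of all measured probes fell, with a median of -0.72, and 1 rose. At Ttc28 the same pair gave 2 rises and 1 fall, with a median of 0.65, and at Odz3 1 rise and 1 fall, with a median of 0.40, where 32.0% of all measured probes rose. After quantile normalization this pair changed, with 1 rise and 1 fall among the 10 Hs6st3 probes, 4 rises and 0 falls among the 5 Odz3 probes, and 2 rises and 1 fall at Ttc28, where 31.1% of all measured probes rose and 17.2% fell. The medians were then -0.16, 0.94 and 1.66, so that Odz3 differed between the Sham pools by nearly as much as in the male comparison on this scale (1.17) and by more than in the female comparison (0.10). Between the TiO2-H arrays (labelled female minus labelled male), 4 of 7 Hs6st3 probes, 1 of 4 Odz3 probes and 2 of 3 Ttc28 probes rose, where 63.7% of all measured probes rose and 1.02% fell, and 1 of the 4 Hs6st3 rises was under 1.5-fold with dim Cy5 taken as a bound. The medians were 0.60, 0.30 and 1.20, against 0.76 for all measured probes, and 0.30, -0.12 and 0.56 after quantile normalization.

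**Figure D4:**
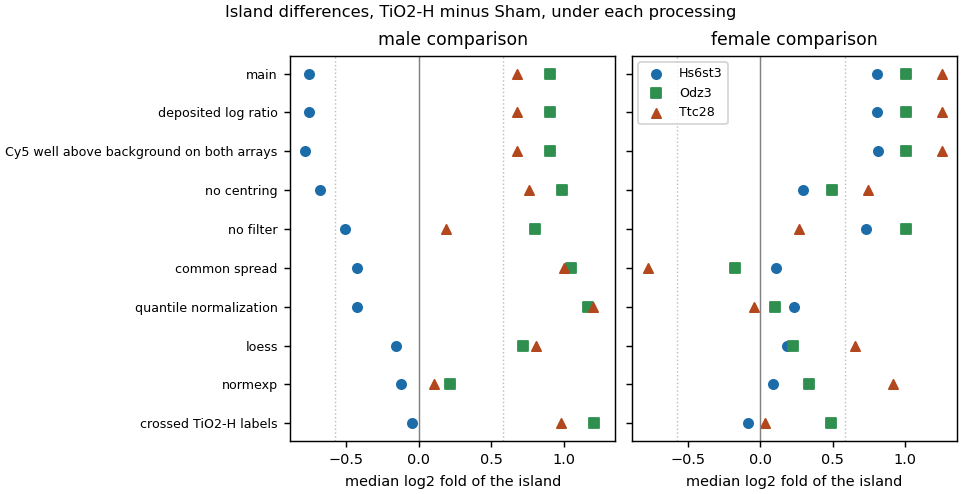
Median log2 difference of each island (TiO2-H minus Sham) in the male and female comparison under each way of processing, with dotted lines at 1.5-fold and 0.67-fold. Odz3 and Ttc28 stayed above 0 in the male comparison under all the ways shown, and in the female comparison the 3 medians moved toward or past 0 once the arrays were given a common spread.

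The islands next along the chromosome were not alike in level. Before Hs6st3, 37.8 kb away, an island of 3 probes had medians of 1.40, 0.75, 0.83 and 1.22 for Sham male, Sham female and the pools labelled TiO2-H male and female, the same order of arrays as at Hs6st3. The next island after it, 1338 kb away, had another order, at 0.88, 0.47, 0.32 and 0.95. After Odz3, 47.4 kb away, an island of 5 probes also had high ratios, at 1.70, 1.91, 2.11 and 1.83, but its array labelled TiO2-H female fell between the Sham arrays. Before Odz3, 118 kb away, an island of 3 probes read 0.59, -0.01, 1.32 and 0.63. The islands beside Ttc28 lay 69.2 kb before it, at 0.33, 0.39, 0.00 and 0.27, and 98.8 kb after it, at 0.78, 0.09, 0.95 and -0.27.

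The islands whose quantile-normalized medians lay closest to those of each member over the 4 arrays were found by Euclidean distance. For Hs6st3 the nearest was an island of 4 probes at chr3:88520728-88521105, at a distance of 0.11, and for Ttc28 one of 10 probes at chr2:35055648-35056948, at 0.09. For Odz3 the nearest, 5 probes at chr7:13556336-13556868, was at 0.27, with medians of 1.17, 1.64, 2.19 and 1.93 on the 4 arrays in the order used above. Odz3 thus had the most distant nearest island of the 3.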

How the data were processed

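Pooled brain DNA of 4 groups was measured on 4 two-colour Agilent mouse CpG island arrays on 2 slides. Per the file headers, the authors used Agilent Feature Extraction 10.7.3.1 on the scans. Deposited processed signals are intensity values on a linear scale, background-subtracted and scaled per dye and array. The deposited log ratio is the log10 ratio of Cy5 to Cy3. Its p-value, also deposited, rests on the software's error model of single spots. The deposited series table differed from these log ratios by at most 5e-10.

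The 5950 control spots were left out, as were 12 probes with an outlier flag, none of them a member, and 0 probes were saturated. Log2 ratios of the processed signals were centred on the autosomal median (Python 3.11.15, numpy 2.4.6, pandas 2.3.3). The fold thresholds and the pairs of arrays follow the study, whose methods do not name the centring step. A dim Cy5 was raised to the lowest well-above-background Cy5 of its array for folds given as bounds. Shares over all measured probes were computed without this bound. Alternatives were quantile normalization, a common median absolute deviation, no centring, loess and normexp (offset 50, limma 3.58.1 in R 4.3.3, on median spot signals), both stricter and absent filters, exchanged TiO2-H labels and, chosen after seeing the data, the deposited log ratio. The counting was tested on simulated data. With 1 array per group, and groups taken from sample titles, no test across samples was made, and the number of arrays limits the precision.

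The members and the alternatives were chosen with earlier results of these data known. The islands named are the 3 members, with every probe, the neighbouring islands and the islands nearest in level. The files used here pair probes with mm9 positions and not with genes, and the gene table given is on GRCm38, so other islands of these genes and lists of genes of the same pathways were not analysed here. Promoters were matched by symbol in RefSeq (GRCm38.p6) for all 3 genes.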

Additional observations from a re-analysis of the deposited data

Results flagged for a closer look

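The Hs6st3 island had opposite directions in the comparisons labelled male and female. Its median difference, TiO2-H minus Sham, was -0.76 (log2) over 8 measured probes in the male comparison, all of them lower, and 0.80 over 9 probes in the female comparison, 8 of them higher. Of these, 2 probes in each comparison had dim Cy5 on 1 array. The gap of 1.56 between both medians was not tested, since each group had 1 array. It was seen with the arrays as labelled, and after exchanging both TiO2-H labels the medians were -0.044 and -0.088.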

How the results depend on the processing

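Each of the 6 island differences was recomputed under 9 alternatives, and counted as kept when it stayed on its side of the 1.5-fold line and moved by less than the SD over the probes of the island. This SD is a spread over probes and not over samples. Of 54 values 28 were kept, 22 moved and 4 reversed. All 6 were kept with Cy5 required above background on both arrays and with the deposited log ratio. The deposited log ratio is made from the same processed signals, so those 6 values could not move. The stricter filter left the measured probes of Odz3 and Ttc28 unchanged, so it bore only on Hs6st3. These values are counted among the 28 kept. Quantile normalization gave -0.43 for Hs6st3 in the male comparison and, in the female comparison, 0.23 for Hs6st3, 0.10 for Odz3 and, reversed, -0.046 for Ttc28. A common spread gave -0.43 for Hs6st3 in the male comparison and, in the female comparison, 0.10 for Hs6st3 and reversed values of -0.17 for Odz3 and -0.78 for Ttc28. Without centring the female differences were 0.30 for Hs6st3 and 0.50 for Odz3. Loess gave -0.16 for Hs6st3 in the male comparison and 0.18, 0.23 and 0.66 for Hs6st3, Odz3 and Ttc28 in the female comparison. Normexp gave -0.13, 0.22 and 0.10 for the same islands in the male comparison and 0.085 and 0.33 for Hs6st3 and Odz3 in the female comparison. Without a filter, Hs6st3 and Ttc28 were -0.51 and 0.19 in the male comparison and Ttc28 was 0.26 in the female comparison. With exchanged TiO2-H labels, Hs6st3 was -0.044 against Sham male and, reversed, -0.088 against Sham female, where Odz3 was 0.49 and Ttc28 0.031. The cause was not tested, except that without a filter the dim Ttc28 probes enter the median. So does the Ttc28 probe starting at 111308715, whose Cy5 was well above background on every array. Normexp brought the levels of all 3 islands closer to the autosomal median. With the male before the female array and Sham before TiO2-H, as labelled, Hs6st3 was then at 0.16, 0.01, 0.09 and 0.20, Odz3 at 0.33, 0.03, 0.19 and 0.38 and Ttc28 at 0.57, 0.00, -0.078 and 0.27. The Odz3 medians of the exposures thus overlapped after normexp. The levels that reversed were those of Ttc28, at -0.028 for Sham male and -0.12 for the array labelled TiO2-H male after loess, and the -0.078 after normexp. No paired analysis was possible because the groups compared hold 1 array each and share only replicate number 1. A fit over both exposures with the slide as a pair was not run. Where Cy5 was not well above background, the level is only an upper bound.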
